A study of Mus musculus with 6 samples.

Results

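Chemokine and chemokine receptor genes were examined in whole small intestine of E18.5 mouse embryos, in 3 controls labelled wildtype and 3 conditional knockouts (cKO) of Cdh1. This gene encodes E-cadherin, by which epithelial cells hold to each other. The sources used here name neither the driver of the recombination nor the exons removed. The genes were chosen by name alone: Ccl, Cxcl, Ccr, Cxcr or Ackr followed by a number, with Cx3cl1, Xcl1, Cx3cr1 and Xcr1, on Affymetrix probe sets annotated to exactly 1 symbol. The rule found 55 of the 19938 genes measured, 34 ligands and 21 receptors, each read from its brightest probe set over the 6 arrays. Values are deposited log2 expression values, and every difference below is cKO minus control on that scale, with the standard error (SE) of limma's fit over all genes and a p adjusted over all of them (Benjamini-Hochberg), called at 0.05. Where 3 values of a group are listed, they are in the order of replicates 1, 2 and 3.

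Chemokines are small secreted proteins that bind receptors coupled to inhibitory G proteins and steer the migration of leukocytes along gradients held on cell surface and matrix glycans. They are named for the spacing of their first cysteines (CC, CXC, XC and CX3C). Some are made constantly and place lymphocytes in tissues, such as Ccl25 of the small intestinal epithelium, while others are induced by inflammatory signals through the transcription factor NF-kB. Atypical receptors bind chemokines without signalling through G proteins and remove or transport them.

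Of the 55 genes, 6 were higher in cKO (Cxcl16, Ccr2, Ccr1, Cxcl5, Ccl3 and Cxcr2) and 3 were lower (Ccl25, Cx3cl1 and Ccr8). That is 16.4% of the members, against 14.2% of all genes tested. The higher calls make up 10.9% of the members, against 6.81% of all genes, and the lower calls 5.5%, against 7.36%, so that the share of called members lay near that of the whole table. The groups did not overlap in 19 members (34.5%, against 35.4% of all genes), 10 of them higher and 9 lower. The median difference over the members was -0.14, beside -0.09 over all genes. Without cKO 2 these medians were 0.013 and 0.0067. The split of 6 higher and 3 lower was 7 and 2 with quantile normalization or cyclic loess. Only 3 genes were called higher when control 1, control 2 or cKO 3 was left out.

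Background was set on each array from 1227 receptor genes of smell, pheromone sensing and taste, at their 95th percentile, and lay between 5.79 and 6.36. Above it on all 3 arrays of at least 1 group were 29 members, 23 of them on all 6 arrays. Another 12 were above it on some arrays only, and 14 on none. Of the 9 called genes, 3 (Cxcl16, Ccl25 and Cx3cl1) were above background on every array, Ccr2 and Cxcl5 on every cKO array, and Ccr1, Ccl3 and Cxcr2 on 2, 1 and 1 of the cKO arrays. Ccr8 was above it on no array.

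Cdh1 itself read 9.86, 9.82 and 10.15 in the control group, against 9.70, 8.38 and 8.91 in the cKO group, a log2 difference of -0.95 (SE 0.31, adjusted p = 0.088). All cKO values were below the controls, and cKO 1 was the closest to them. The intestinal genes Epcam, Krt8 and Fabp2 were above background on all 6 arrays. Single arrays stood apart in some values that touch the members. The dimmest array was cKO 2, with a median over all genes of 6.83, against 6.98 to 7.06 on the others. Its background was also the lowest, at 5.79. On cKO 3 the pancreatic gene Cpa1 read 10.48, against 6.53 to 6.86 elsewhere. The part of either array in the results was not tested beyond leaving it out. Whether each sample is a separate embryo is not said in the labels. The p-values here therefore speak of the spread among these 6 arrays alone, which may be technical.

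**Figure D1:**
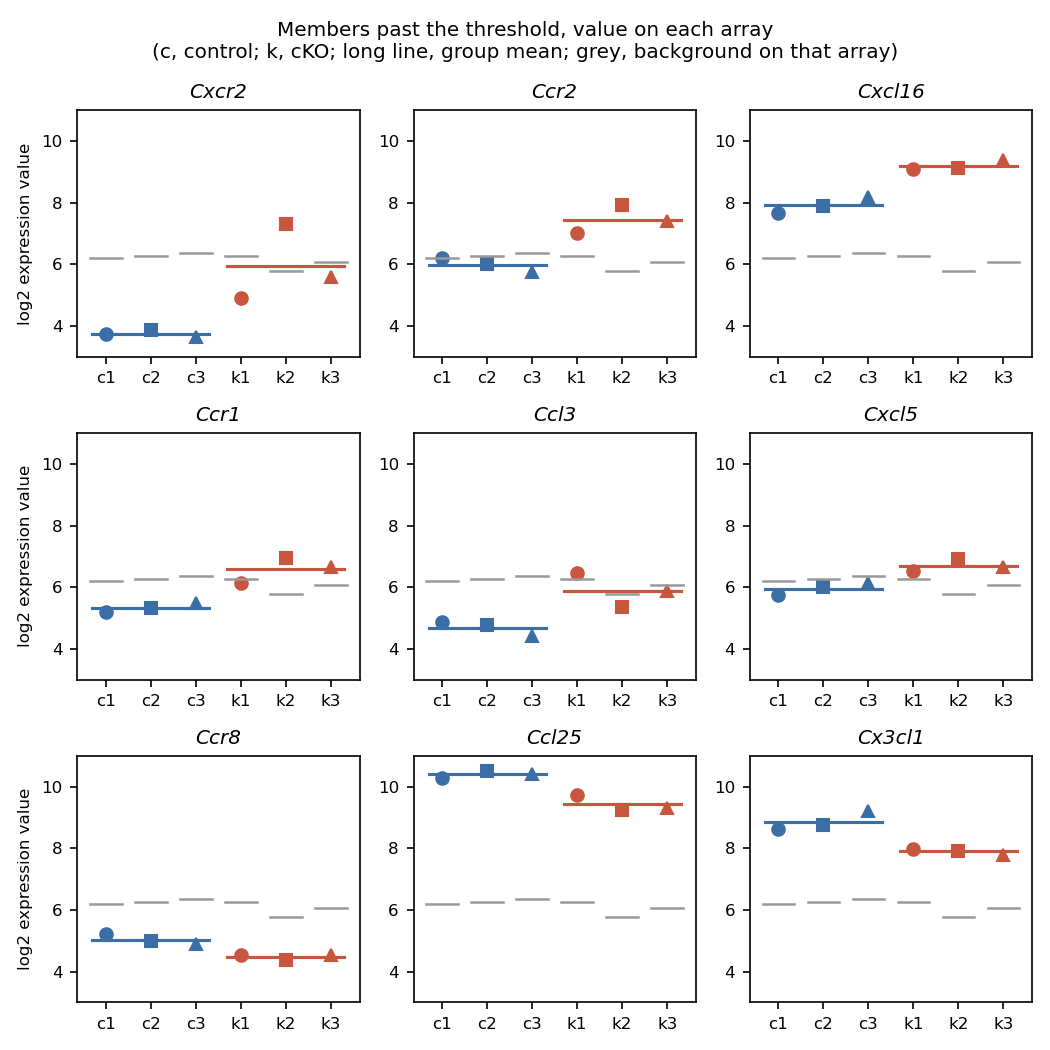
Log2 expression value (vertical axis) of the 9 called genes on the 3 control (blue) and 3 cKO (red) arrays, with group means as long lines and the background level of each array as short grey lines. Cxcl16, Ccl25 and Cx3cl1 lie above background throughout, while Ccr8 lies below it on every array.

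The RefSeq promoter table (GRCm38.p6) held 43 windows for 41 of the members. Of the 9 called genes, 7 had a window, and Cxcl5 and Cxcl16 had none. The 250 bases before the start site are shown for 5 of the 7, Ccl25 (with its 2 listed starts), Cx3cl1, Ccr1, Ccr2 and Cxcr2. Those of Ccl3 and Ccr8 are not shown. Windows are also shown for Cxcl1, Cxcl2 and Cxcl3, neighbours of Cxcl5 that were not called. They are written 5′ to 3′ along the gene, with capitals for every match on either strand to 6 motifs. These are the NF-kB consensus, the core of PU.1 and ETS sites (GAGGAA), the site of AP-1 factors (TGANTCA), that of the intestinal Cdx factors (TTTATG), that of STAT factors (TTCNNNGAA) and that of the zinc finger factors of the Gata family (AGATAA).
Ccl25 (chr8:4324960-4325209, plus strand): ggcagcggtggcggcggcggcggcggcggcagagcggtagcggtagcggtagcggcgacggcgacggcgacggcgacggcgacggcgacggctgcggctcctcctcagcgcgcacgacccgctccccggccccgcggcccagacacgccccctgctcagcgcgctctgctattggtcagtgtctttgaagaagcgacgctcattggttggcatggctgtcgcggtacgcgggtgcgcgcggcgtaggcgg
Ccl25 (chr8:4349338-4349587, plus strand): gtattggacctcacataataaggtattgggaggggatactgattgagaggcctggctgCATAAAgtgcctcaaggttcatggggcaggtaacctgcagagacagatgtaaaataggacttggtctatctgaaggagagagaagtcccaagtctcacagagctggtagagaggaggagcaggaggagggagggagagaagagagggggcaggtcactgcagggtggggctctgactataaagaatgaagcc
Cx3cl1 (chr8:94771930-94772179, plus strand): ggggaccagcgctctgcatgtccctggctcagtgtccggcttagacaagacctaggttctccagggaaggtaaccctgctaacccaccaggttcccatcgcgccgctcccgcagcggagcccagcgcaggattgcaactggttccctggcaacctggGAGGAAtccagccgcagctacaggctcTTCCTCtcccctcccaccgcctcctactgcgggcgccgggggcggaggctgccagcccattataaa
Ccr1 (chr9:123968693-123968942, minus strand): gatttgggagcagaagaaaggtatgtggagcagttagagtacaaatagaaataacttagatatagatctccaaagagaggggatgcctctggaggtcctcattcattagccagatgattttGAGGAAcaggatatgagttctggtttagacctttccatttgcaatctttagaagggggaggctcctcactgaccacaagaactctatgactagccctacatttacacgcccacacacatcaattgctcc
Ccr2 (chr9:124101933-124102182, plus strand): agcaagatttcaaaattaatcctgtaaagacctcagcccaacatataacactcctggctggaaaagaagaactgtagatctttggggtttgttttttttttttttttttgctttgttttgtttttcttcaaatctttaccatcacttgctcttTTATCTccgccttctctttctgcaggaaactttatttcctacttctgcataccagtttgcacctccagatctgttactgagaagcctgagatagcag
Cxcr2 (chr1:74153744-74153993, plus strand): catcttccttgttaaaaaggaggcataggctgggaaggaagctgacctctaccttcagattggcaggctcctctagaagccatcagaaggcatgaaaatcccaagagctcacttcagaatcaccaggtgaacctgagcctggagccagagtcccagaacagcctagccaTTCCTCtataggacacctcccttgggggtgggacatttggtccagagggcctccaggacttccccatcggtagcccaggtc
Cxcl1 (chr5:90890995-90891244, plus strand): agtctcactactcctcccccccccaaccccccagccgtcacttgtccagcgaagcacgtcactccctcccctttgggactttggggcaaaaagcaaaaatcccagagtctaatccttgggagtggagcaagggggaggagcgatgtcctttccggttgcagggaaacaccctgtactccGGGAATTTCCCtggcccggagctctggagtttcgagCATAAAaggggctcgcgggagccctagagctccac
Cxcl2 (chr5:90903649-90903898, plus strand): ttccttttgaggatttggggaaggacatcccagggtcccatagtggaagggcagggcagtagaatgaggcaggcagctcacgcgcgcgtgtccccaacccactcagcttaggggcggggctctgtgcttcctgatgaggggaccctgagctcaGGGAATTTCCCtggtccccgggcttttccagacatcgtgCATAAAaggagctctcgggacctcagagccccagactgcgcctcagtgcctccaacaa
Cxcl3 (chr5:90785851-90786100, plus strand): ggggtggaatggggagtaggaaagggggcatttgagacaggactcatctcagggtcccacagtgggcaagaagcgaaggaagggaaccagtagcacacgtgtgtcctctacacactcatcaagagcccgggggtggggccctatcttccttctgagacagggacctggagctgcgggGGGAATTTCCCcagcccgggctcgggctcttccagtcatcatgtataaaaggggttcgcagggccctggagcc
The NF-kB consensus was found in the windows of Cxcl1, Cxcl2 and Cxcl3, read on both strands of 1 nearly palindromic element that starts 71, 97 and 73 bases before the start site. It occurred in 9 of the 43 member windows and in 3.9% of the 32851 windows of the table. GAGGAA occurred in 11 of the 43 and in 23.3% of all, and in those of Ccr1 (129 bases before the start), Cxcr2 (81) and Cx3cl1 (93 and 66). The window of Ccl3, which is not shown, also held it (33). TTTATG was in 8 of the 43 and in 10.8% of all, among them the second window of Ccl25. AGATAA was in 6 of the 43 and in 9.99% of all, Ccr2 and Ccr8 included. TGANTCA (4 of 43 and 6.75% of all) and TTCNNNGAA (3 of 43 and 7.02% of all) were in none of the windows shown. These matches describe the letters and are not known sites.

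The ligands are taken first. Ccl25 is the epithelial ligand that brings Ccr9-bearing lymphocytes to the small intestine. It read 10.28, 10.51 and 10.43 in the control group, against 9.75, 9.24 and 9.33 in the cKO group. Every cKO array was below every control, by at least 0.53. The mean fell from 10.41 ± 0.12 to 9.44 ± 0.27 (SD, n = 3 each), a log2 difference of -0.97 (SE 0.16, adjusted p = 0.0082), or 1.95-fold lower. A second, dim probe set of Ccl25 read between 5.70 and 6.33 and differed by -0.24 (SE 0.15, adjusted p = 0.36 in a fit over probe sets), so that the mean of the 2 probe sets gave -0.60. In whole tissue, fewer cells of a type and less RNA per cell cannot be told apart. Of 10 epithelial markers, 3 were lower and 3 higher, and their mean log2 value was 10.66 to 11.03 over the controls and 10.56 to 10.65 over cKO. Among the brightest, Fabp2, an enterocyte fatty acid binding protein, fell by 1.68 on the log2 scale (SE 0.14, adjusted p = 0.00078), Krt8 rose by 0.91 (SE 0.11) and Epcam differed by -0.10 (SE 0.11, adjusted p = 0.59). Their part in the fall of Ccl25 was not tested.

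Cx3cl1 (fractalkine) is a membrane-bound ligand that can adhere or be shed, made by epithelium, endothelium and neurons. It read 8.63, 8.76 and 9.23 in the control group, against 7.99, 7.93 and 7.79 in the cKO group. The cKO arrays lay close together and all below the controls. The mean fell from 8.87 ± 0.32 to 7.90 ± 0.10 (SD, n = 3 each), a log2 difference of -0.97 (SE 0.17, adjusted p = 0.011), or 1.96-fold lower. Of 6 blood endothelial markers none was called, with a median difference of 0.20. Xcl1, the lymphocyte ligand of Xcr1, read 5.70 to 6.33 over the arrays and was above background on 2 of the 6.

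The other mucosal and lymphoid CC ligands were not called. Ccl28, a ligand of epithelia for Ccr10, differed by -0.46 (SE 0.14, adjusted p = 0.068) and was at or below background on all 6 arrays. Ccl19, the Ccr7 ligand of lymphoid stroma, read 7.23, 6.65 and 6.66 in the control group, against 6.48, 6.26 and 6.40 in the cKO group. Its groups did not overlap, but the log2 difference of -0.47 (SE 0.18, adjusted p = 0.14) did not pass. The 5 probe sets of Ccl19, a gene with near-identical copies, differed by -0.47 to -0.55. Ccl20, the epithelial ligand of Ccr6, lay near background and differed by -0.33 (SE 0.18, adjusted p = 0.27). With Ccl25 they make 4 mucosal and lymphoid CC ligands. Of these, Ccl25 alone was called (14.2% of all genes were), and Ccl25, Ccl28 and Ccl19 had groups that did not overlap (as did 35.4% of all genes).

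Cxcl16 is a transmembrane ligand of Cxcr6 that also takes up oxidised lipoprotein, and is made by epithelium, macrophages and dendritic cells. It read 7.65, 7.89 and 8.19 in the control group, against 9.09, 9.12 and 9.38 in the cKO group. The lowest cKO array lay 0.90 above the highest control. The mean rose from 7.91 ± 0.27 to 9.20 ± 0.16 (SD, n = 3 each), a log2 difference of 1.29 (SE 0.17, adjusted p = 0.0035), or 2.44-fold higher. This was the smallest adjusted p of the 55 genes, and the gene was called under all 16 alternatives.

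The homeostatic CXC ligands beside it did not pass. Cxcl17, a mucosal chemokine, read 8.16, 8.11 and 8.07 in the control group, against 8.02, 7.24 and 7.35 in the cKO group. Replicates cKO 2 and cKO 3 were well below the controls and cKO 1 was close to them. The difference was -0.58 (SE 0.21, adjusted p = 0.11), and without cKO 1 it was -0.82 (adjusted p = 0.010). Array weights also gave a call (adjusted p = 0.011). Cxcl14, an epithelial and stromal chemokine, read 8.14, 8.15 and 8.10 in the control group, against 8.01, 7.34 and 8.05 in the cKO group. Only cKO 2, the dimmest array over all genes, was well below (difference -0.33, SE 0.20, adjusted p = 0.32). Cxcl12, the stromal ligand of Cxcr4, read 7.71, 7.77 and 7.41 in the control group, against 8.01, 7.81 and 7.41 in the cKO group. Its groups overlapped, with a log2 difference of 0.11 (95% interval -0.32 to 0.54). Cxcl13, which draws B cells into lymphoid follicles, was the most variable: 9.59, 8.35 and 7.70 in the control group, against 9.32, 9.41 and 8.42 in the cKO group. The spread between controls exceeded the difference of 0.50 (SE 0.48, adjusted p = 0.53).

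The neutrophil-attracting CXC ligands act on Cxcr2. Cxcl5, made mainly by epithelium, read 5.74, 5.99 and 6.12 in the control group, against 6.51, 6.91 and 6.67 in the cKO group. All controls were at or below background and all cKO arrays above it. The log2 difference was 0.75 (SE 0.15, adjusted p = 0.020), at least 1.34-fold higher when controls are set to background. Leaving out control 1, control 2 or cKO 3 ended the call (adjusted p = 0.063, 0.074 and 0.061). Its 4 neighbours in the same gene cluster on chromosome 5 were not called. Cxcl1 was well above background and read 8.18, 7.98 and 8.22 in the control group, against 8.09, 7.58 and 8.19 in the cKO group, a log2 difference of -0.17 (95% interval -0.59 to 0.25). Cxcl2, Cxcl3 and Cxcl15 were above background on no array, with log2 differences of -0.16, -0.09 and -0.46.

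None of the 3 interferon-inducible Cxcr3 ligands passed. Cxcl11 read 6.75 to 6.95 in controls and 6.29 to 6.94 in cKO, and Cxcl10 and Cxcl9 lay around or below background. Their log2 differences ran from -0.19 to -0.16.

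Among the CC ligands for monocytes and macrophages, only Ccl3 was called. Ccl3 (MIP-1 alpha), a product of activated myeloid cells that binds Ccr1, read 4.86, 4.77 and 4.41 in the control group, against 6.45, 5.34 and 5.88 in the cKO group. The cKO arrays were all higher, but only cKO 1 was above background, so no fold is given. The log2 difference was 1.21 (SE 0.28, adjusted p = 0.027), and the call was lost without control 1, 2 or 3 or cKO 3 (adjusted p = 0.058, 0.083, 0.11 and 0.077). Its neighbours Ccl4, Ccl5, Ccl6 and Ccl9 were above background on all 6 arrays and were not called, with log2 differences of -0.06, -0.18, -0.29 and -0.61. Ccl6, a macrophage and neutrophil ligand, read 9.32, 9.08 and 9.27 in the control group, against 8.79, 8.89 and 9.11 in the cKO group. Ccl9 read 9.25, 9.04 and 8.36 in the control group, against 8.77, 7.99 and 8.05 in the cKO group. The groups overlapped in both genes (adjusted p = 0.20 and 0.21). Ccl4 and Ccl5 read 6.31 to 6.71 and 7.18 to 7.22 in controls, and 6.03 to 6.88 and 6.62 to 7.29 in cKO, with cKO 2 the lowest array for both.

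The ligands of Ccr2 did not pass. Ccl2 (MCP-1), the main attractant of monocytes, read 6.53, 6.39 and 6.73 in the control group, against 6.79, 6.76 and 6.75 in the cKO group. The groups were apart by 0.02 only, and the log2 difference was 0.22 (95% interval -0.07 to 0.51, adjusted p = 0.30). Ccl7 read 6.45 to 6.67 in controls and 6.60 to 6.71 in cKO, a log2 difference of 0.06 (95% interval -0.21 to 0.33). Ccl12 was above background on 2 cKO arrays and differed by 0.31 (SE 0.22). Ccl8, a ligand of Ccr8 in the mouse, was above background on no array and differed by -0.74 (SE 0.23, adjusted p = 0.077), and passed with median centring (adjusted p = 0.038), with the replicate block (0.039) or without cKO 3 (0.024).

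The type 2 ligands, which draw eosinophils and Th2 cells, gave 0 calls in 6 genes. Ccl11 (eotaxin) read 8.85, 9.13 and 9.25 in the control group, against 8.31, 8.84 and 8.96 in the cKO group, a log2 difference of -0.37 (SE 0.20, adjusted p = 0.26). Ccl24 (eotaxin-2) read 7.58, 7.88 and 7.67 in the control group, against 7.07, 8.01 and 7.97 in the cKO group, with cKO 1 apart from the other cKO arrays. Both ligands of Ccr3 were thus well above background in both groups. Ccl1, Ccl17, Ccl22 and Ccl26 lay at or near background, with log2 differences between -0.34 and -0.01.

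**Figure D2:**
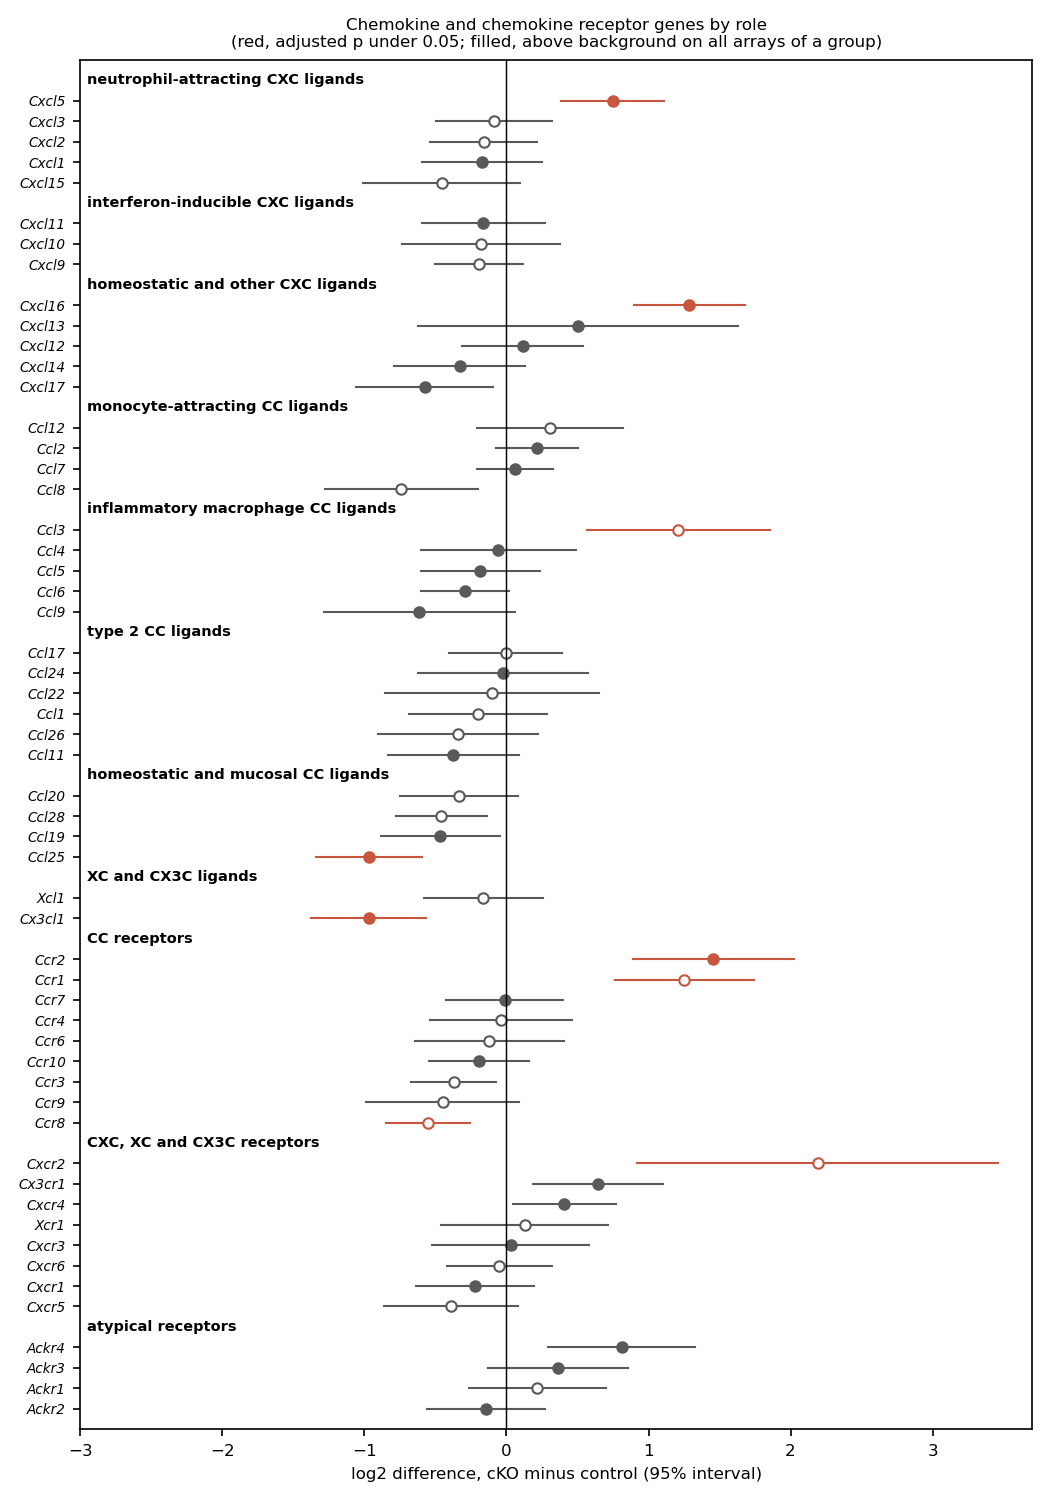
Log2 difference, cKO minus control, of all 55 genes with its 95% interval, grouped by role; red marks an adjusted p under 0.05 and filled points a gene above background on all arrays of a group. Most intervals include 0, the higher calls are spread over ligands and receptors, and Ccl25 and Cx3cl1 are the only filled lower calls.

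The receptors were led by those of myeloid cells. Ccr2, the receptor of inflammatory monocytes, read 6.21, 6.0 and 5.75 in the control group, against 7.01, 7.93 and 7.39 in the cKO group. Every cKO array was above every control by at least 0.80, and 1 control was above background. The mean rose from 5.99 ± 0.23 to 7.44 ± 0.46 (SD, n = 3 each), a log2 difference of 1.46 (SE 0.24, adjusted p = 0.0082). The fold was 2.74 with controls taken as measured, not set to background, although their mean lay below it. Ccr1, carried by monocytes, macrophages and neutrophils, read 5.20, 5.32 and 5.48 in the control group, against 6.15, 6.95 and 6.66 in the cKO group. Its log2 difference was 1.25 (SE 0.21, adjusted p = 0.0082), at least 1.25-fold with controls set to background. The calls of both receptors held with each array left out in turn.

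Cxcr2 is the neutrophil receptor of Cxcl1, Cxcl2, Cxcl3 and Cxcl5. Its values were 3.73, 3.87 and 3.63 in the control group, against 4.90, 7.32 and 5.58 in the cKO group. The cKO arrays were all higher and far apart from each other, and only cKO 2 was above background. The log2 difference was 2.19 (SE 0.54, adjusted p = 0.036), lost without control 1, 2 or 3 or cKO 3 (adjusted p = 0.094, 0.10, 0.13 and 0.073). No fold is given, since the cKO mean lay below the background of the controls. Cxcr1, the related receptor, stayed near background at 6.26 to 6.47 in controls and 5.78 to 6.42 in cKO (log2 difference -0.22, SE 0.18).

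Pan-leukocyte markers and most macrophage and monocyte markers were higher on the same arrays, while the neutrophil and dendritic cell lists were mixed. Of all genes, 6.81% were called higher. All 5 pan-leukocyte markers were higher, with a mean log2 value of 7.06 to 7.28 over the controls and 8.11 to 8.68 over cKO; Laptm5, a lysosomal protein of leukocytes, rose by 1.34 (SE 0.13, adjusted p = 0.0012). Of 11 macrophage and monocyte markers, 9 were higher and none lower (mean 7.29 to 7.41 in controls, 8.20 to 8.66 in cKO), among them Lyz2 at 2.10 and C1qc at 1.03, while Csf1r differed by 0.18 (SE 0.12, adjusted p = 0.36). Of 12 neutrophil markers, 3 were higher (mean 5.48 to 5.61 in controls, 5.997 to 6.51 in cKO), and 4 were above background on no array. Lcn2, the lipocalin of neutrophils and injured epithelium, read 5.41, 6.18 and 6.40 in the control group, against 7.20, 8.70 and 7.80 in the cKO group. Ly6g, a surface protein of neutrophils chosen here after its values were seen, read 4.18, 4.0 and 4.32 in the control group, against 6.52, 9.27 and 6.54 in the cKO group. For Lcn2 and Ly6g, as for Ccr1, Ccr2 and Cxcr2, cKO 2 was the highest array. The other bright neutrophil markers did not pass: Retnlg, a granulocyte secreted protein, differed by 0.30 (SE 0.13, adjusted p = 0.17) and Elane, the neutrophil elastase gene, by -0.40 (SE 0.14, adjusted p = 0.11). Elane was lower in every cKO array than in any control. The granule genes Ngp, Camp and Ltf, named after their values were seen, differed by -0.15, -0.14 and -0.03 and were not called. Ngp and Camp were above background on no array, and Ltf on cKO 2 alone. S100a8 and S100a9, also named after their values were seen, differed by 1.37 (SE 0.37, adjusted p = 0.047) and 0.60 (SE 0.21, adjusted p = 0.11). Each was above background on 1 cKO array and no control. Over the whole neutrophil list, 8 differences were positive and 4 negative. Of 8 dendritic cell markers, 4 were higher and none lower. The brightest, the class II antigen presentation genes Cd74, H2-Ab1 and H2-Aa, which macrophages and B cells also express, rose by 1.18 (SE 0.20), 1.12 (SE 0.22) and 1.08 (SE 0.23). Zbtb46, Clec9a and Cd209a, which are more particular to dendritic cells and were named after their values were seen, differed by -0.30, -0.24 and -0.38 and were not called, the last 2 at or below background on all arrays. The part of any of these cells in the receptor values was not tested.

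**Figure D3:**
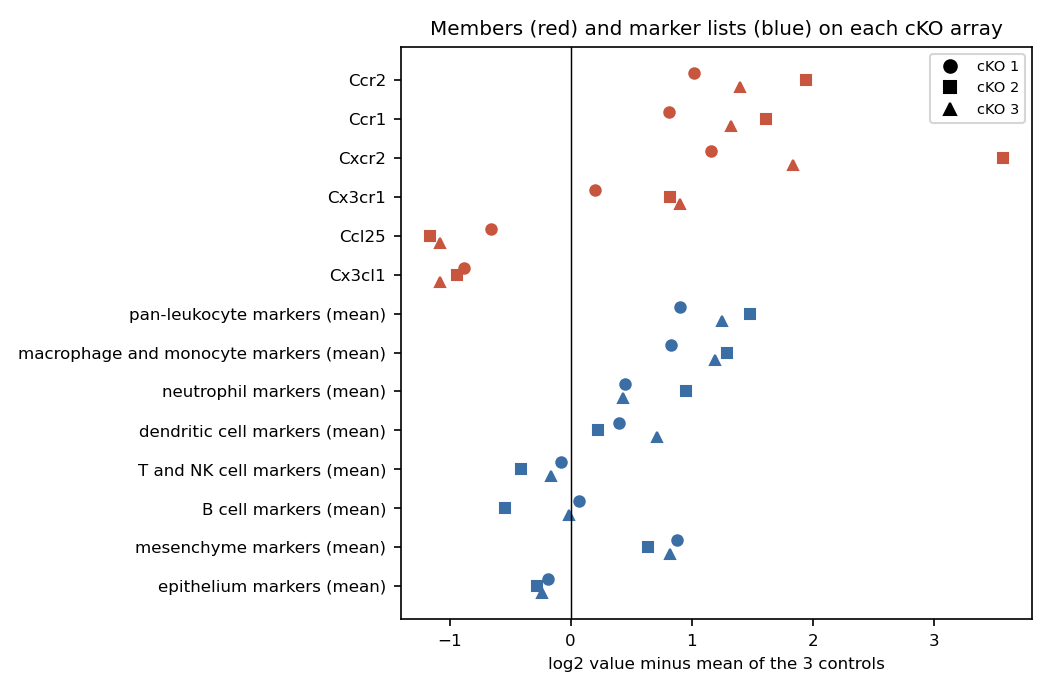
Log2 value on each cKO array minus the mean of the 3 controls, for 6 members (red) and for the mean of 8 marker lists (blue). Ccr2, Ccr1 and Cxcr2 lie to the right with pan-leukocyte and macrophage markers and are highest on cKO 2. The neutrophil mean also lies to the right, although 4 of its 12 markers had negative differences. The T and NK cell markers and B cell markers lie near or below 0.

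None of the receptors known mainly from lymphocytes was called higher. Cxcr3, of effector T cells, read 6.68, 6.36 and 6.25 in the control group, against 6.55, 5.97 and 6.86 in the cKO group (log2 difference 0.03, 95% interval -0.52 to 0.58). Ccr7, of naive T cells and migrating dendritic cells, read 6.22 to 6.51 in controls and 6.15 to 6.73 in cKO (log2 difference -0.01, 95% interval -0.43 to 0.40). Ccr10, the receptor of Ccl28, differed by -0.19 (95% interval -0.54 to 0.16). Ccr4, Ccr6, Cxcr5, Cxcr6 and Xcr1 were above background on no array. Ccr9, the gut-homing receptor that binds Ccl25, was above it on cKO 2 alone, at 6.01. Control 3 read 6.03, but background was lowest on cKO 2. Ccr3, of eosinophils, was above background on 1 array of each group, cKO 2 (5.81) among them. Of 8 T and NK cell markers and 5 B cell markers none was called, with mean log2 values of 5.71 to 5.83 and 5.89 to 6.01 in controls and 5.37 to 5.70 and 5.42 to 6.03 in cKO.

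Ccr8, a receptor of Th2 and regulatory T cells, read 5.22, 5.0 and 4.90 in the control group, against 4.54, 4.39 and 4.54 in the cKO group. The cKO arrays were lower, but all 6 values were below background, so no fold is given. Its log2 difference was -0.55 (SE 0.13, adjusted p = 0.028), and leaving out any single array ended the call (adjusted p = 0.051 to 0.099).

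Cx3cr1, the fractalkine receptor of resident macrophages and patrolling monocytes, read 7.20, 7.23 and 7.04 in the control group, against 7.36, 7.98 and 8.06 in the cKO group. The groups did not overlap, with cKO 1 only 0.13 above the highest control. The log2 difference of 0.64 (SE 0.20, adjusted p = 0.072) did not pass. It passed under 5 of the 16 alternatives: without cKO 1 (0.86, adjusted p = 0.010), with either filter on dim genes (0.039 and 0.046), with an intensity trend (0.044) and with array weights (0.0081). Cxcr4, the broadly expressed receptor of Cxcl12, read 7.76 in each control and 8.02, 7.99 and 8.49 in cKO 1, 2 and 3, a log2 difference of 0.41 (SE 0.16, adjusted p = 0.13).

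The atypical receptors gave 0 calls in 4 genes. Ackr4, a scavenger of Ccl19, Ccl20 and Ccl25 on stroma and lymphatic vessels, was the closest. It read 5.99, 5.99 and 5.91 in the control group, against 6.98, 6.24 and 7.10 in the cKO group, so that all controls were below and all cKO arrays above background. Its log2 difference of 0.81 (SE 0.22, adjusted p = 0.052) became 1.08 (adjusted p = 0.0031) without cKO 2, and the gene was called under 8 of the 16 alternatives, quantile normalization among them (adjusted p = 0.0082). Ackr3, the Cxcl12 scavenger, read 6.71, 6.78 and 6.62 in the control group, against 6.58, 7.22 and 7.40 in the cKO group. Here cKO 1 lay below the controls, and the difference of 0.36 (SE 0.21, adjusted p = 0.31) was 0.61 without it (adjusted p = 0.031). Ackr2, which clears inflammatory CC ligands, differed by -0.14 (95% interval -0.56 to 0.27), and Ackr1, the erythroid and venular receptor, was above background on 1 array. Of 4 lymphatic endothelial markers, 1 was higher, Pdpn at 1.55, and Lyve1 differed by 0.18 (SE 0.15, adjusted p = 0.47).

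Ligands and receptors were set side by side in 31 ligand-receptor pairs with both genes measured. In 2 pairs both genes were called higher, Cxcl5 with Cxcr2 and Ccl3 with Ccr1. Leaving out single arrays ended the calls of Cxcl5, Cxcr2 and Ccl3, but not that of Ccr1. Cxcr2 and Ccl3 were each above background on 1 cKO array and no control. In 7 pairs both genes were above background on all arrays of a group. Cx3cl1 and Cx3cr1 formed 1 of them, with log2 differences of -0.97 and 0.64. Cxcl16 rose while Cxcr6 (log2 difference -0.05, SE 0.16) was above background on no array, and Ccl25 fell while Ccr9 (-0.45, SE 0.23, adjusted p = 0.25) was above it on 1 array. Ccr2 rose, whereas its ligands Ccl2, Ccl7 and Ccl12 did not pass.

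**Figure D4:**
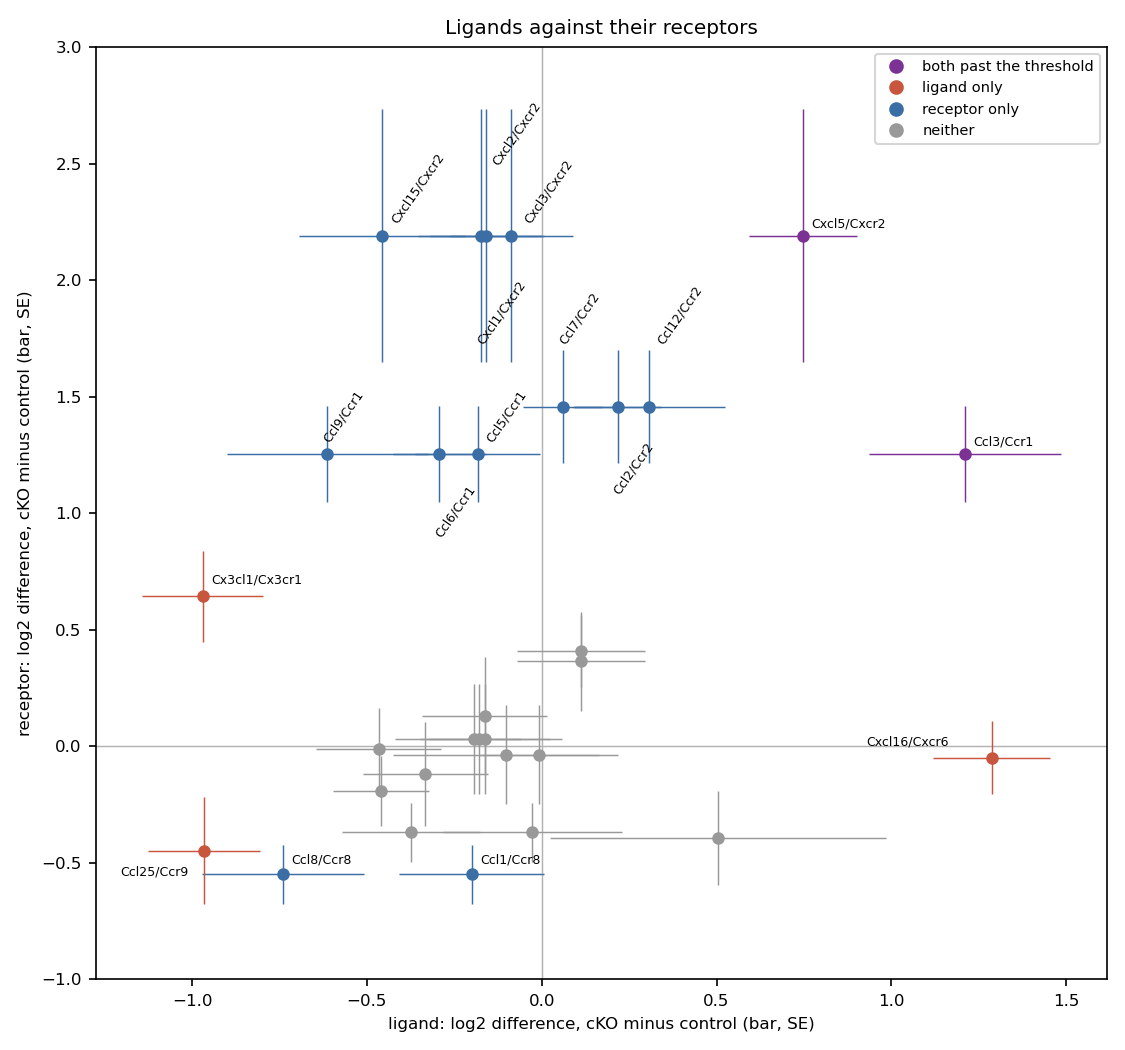
Log2 difference of each ligand (horizontal axis) and of its receptor (vertical axis), cKO minus control, with SE bars, for 31 pairs; pairs that share a receptor lie on 1 horizontal line. Cxcl5 with Cxcr2 and Ccl3 with Ccr1 lie at the upper right, Cxcl16 far to the right at a receptor difference near 0, and Cx3cl1 to the left with a positive receptor difference.

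Many of these genes lie in clusters, where called genes had neighbours that were not called. In the chromosome 9 receptor cluster, Ccr1 and Ccr2 rose, while Ccr3, Ccr9, Cxcr6 and Xcr1 were not called, and the 6 differences ran from -0.45 to 1.46. In the chromosome 11 cluster of 5, Ccl3 was the 1 gene called, and in the other cluster of 6 there (Ccl1, Ccl2, Ccl7, Ccl8, Ccl11 and Ccl12) the count was 0. Cx3cl1 was lower between its neighbours Ccl22 and Ccl17, whose log2 differences were -0.10 and -0.01. Neighbourhood was taken from the RefSeq gene table (GRCm38.p6) as starts within 500000 bases of the next member.

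Other genes of the chemokine system were read from textbook lists. Of 11 family genes outside the name rule, 2 were higher, the chemerin receptor gene Cmklr1 (0.68, SE 0.13, adjusted p = 0.015) and Cmtm3 (0.65, SE 0.14, adjusted p = 0.022). The chemerin gene Rarres2 differed by 0.41 (SE 0.12, adjusted p = 0.063). Of 33 signalling genes below the receptors, 6 were higher and 1 lower, with a median difference of 0.33. They include the arrestin genes Arrb1 (0.58, SE 0.12) and Arrb2 (0.71, SE 0.17), which end receptor signalling, and Rac2 (1.08, SE 0.25, adjusted p = 0.031). Plcb2, a phospholipase gene, fell by 0.73 (SE 0.18, adjusted p = 0.037).

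Of 30 cytokine and receptor genes that act above chemokine genes, 7 were higher and 1 lower, with a median of -0.085. Il1b, a strong inducer of chemokine genes, read 5.45, 5.30 and 5.59 in the control group, against 7.30, 7.23 and 6.77 in the cKO group, at least 1.78-fold higher with controls at background (log2 difference 1.65, SE 0.17, adjusted p = 0.0016). Its antagonist Il1rn rose by 3.99 (SE 0.28), at least 5.30-fold. The receptor genes Osmr and Tnfrsf1b rose by 1.60 (SE 0.15) and 1.19 (SE 0.12). Of 16 NF-kB factors and feedback genes, 3 were higher and none lower: Nfkb2 at 0.74 (SE 0.13), the inhibitor gene Nfkbia at 0.63 (SE 0.11) and Rel at 0.56 (SE 0.13, adjusted p = 0.026), with Rela at 0.55 (SE 0.15, adjusted p = 0.051). Cxcl1, Cxcl2 and Cxcl3, known targets of this pathway in inflamed tissue, were not called, and Cxcl2 and Cxcl3 were above background on no array. The part of this pathway in the member values was not tested.

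Of 16 genes for proteases and glycans that cut or hold chemokines, 5 were higher and 1 lower. The lower one was Dpp4, a peptidase gene of the enterocyte brush border whose product trims and inactivates many chemokines, named after its values were seen. It read 10.47, 10.61 and 10.62 in the control group, against 9.48, 9.80 and 9.12 in the cKO group, and fell by 1.10 on the log2 scale (SE 0.18, adjusted p = 0.0077). The gelatinase gene Mmp9, whose product trims CXC ligands, rose by 1.91 (SE 0.18, adjusted p = 0.0012), the membrane protease gene Mmp14 by 0.98 (SE 0.12), the collagenase gene Mmp13 by 1.32 (SE 0.21) and the proteoglycan gene Sdc1 by 0.75 (SE 0.11). Over the whole list, the groups did not overlap in 10 of the 16 genes (62.5%, against 35.4% of all genes). The share called in each list was 18.2%, 21.2%, 26.7%, 18.8% and 37.5% in the order given, beside 14.2% of all genes. The lists were chosen with earlier results of these data known, so these shares are not a test of the lists.

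The remaining marker lists place these genes in the tissue as a whole. All 7 mesenchyme and all 5 smooth muscle markers were higher, as were 6.81% of all genes. Their median differences were 0.76 and 0.86, with Vim at 0.76 (SE 0.13) and Actg2 at 0.76 (SE 0.13) among them. Ccl2, Ccl11, Cxcl12 and Cxcl13, which stromal cells can make, were not called, and their link to these markers was not tested. Of 9 mast cell and eosinophil, 4 innate lymphoid, 5 neuron and glia, 2 erythroid and 3 pancreas markers none was called. The mean of the pancreas markers was nevertheless 8.99 on cKO 3, against 6.34 to 6.62 on the other arrays. Of 4 liver markers 1 was lower, Afp at -3.61 (SE 0.75, adjusted p = 0.020). The part of tissue makeup in the member values was not tested.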

How the data were processed

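RNA of 6 samples was measured on Affymetrix Mouse Gene 1.0 arrays with biotin labelling, per the labels' protocols and the design text, which names dChip. No source used here gives its version, background correction or normalization. The authors deposited a table of 35512 probe sets by 6 arrays. Its values were taken for log2 from their range, a scale that no label states, and used as deposited. By the platform annotation, 21789 probe sets had 1 symbol, 1621 several and 12102 none listed. Symbols were updated by gene identifier for 21698 (RefSeq, GRCm38.p6), which gave 19938 genes by their brightest probe set. Arrays have no read depth, and their number limits the precision.

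Each gene was tested with limma 3.58.1 in R 4.3.3 (lmFit, eBayes, two-sided, no covariate), with Benjamini-Hochberg adjustment over all genes and a threshold of 0.05. The fit was tested on simulated data. Where all arrays of the dimmer group were at or below background, a fold is a lower bound against the higher of background and the measured value on each array.

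The members and all lists were chosen with earlier results of these data known. Statistics are given for called members and for those above background on all arrays of a group; for each pathway list up to 4 genes with the smallest p, and for marker lists up to 3 with the highest mean. Marker lists of mast cells, innate lymphoid cells, mesenchyme, smooth muscle, neurons, erythroid cells, liver and pancreas were also read. Alternatives were other normalizations, filters on dim genes, other handling of probe sets, an intensity trend, array weights, a replicate block and leaving out each array.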

Additional observations from a re-analysis of the deposited data

How the results depend on the processing

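Of the 9 called members, Cxcl16, Ccr2, Ccr1, Ccl25 and Cx3cl1 kept their direction and their call under every alternative in which they were tested (15 for Ccr1 and 16 for the others), and the log2 difference of Ccl25 ranged from -1.12 to -0.60. The counts of 6 higher and 3 lower became 9 and 8 with array weights, where 5834 genes were called in all against 2825. With 1 array left out they ran from 3 to 8 higher, from 2 to 3 lower, and from 1226 to 2713 over all genes. The cause was not tested. Ccr8 was also lost with quantile normalization (adjusted p = 0.084), cyclic loess (0.086), an intensity trend (0.073) and the replicate block (0.058). With the replicate block the counts were 6 higher and 3 lower, with Ccl8 called (adjusted p = 0.039) and Ccr8 not, and 2212 over all genes. Same-numbered arrays did not deviate together (r = -0.08, 0.13 and 0.14), so the numbers were not taken as pairs.

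Of the 24 described members that were not called, 18 stayed so throughout; the others were called under at least 1 alternative. Small differences changed sign. With array weights these were Ccl24 at 0.056, Ccl4 at 0.18, Cxcl1 at 0.067, Cxcl12 at -0.17 and Ccl7 at -0.0013; with quantile normalization Ccl4 at 0.016 and Ccr7 at 0.067; with cyclic loess Ccl4 at 0.010 and Ccr7 at 0.070; with median centring Ccr7 at 0.0033. With 1 array left out the ranges crossed 0 for Ackr2 (-0.28 to 0.0017), Ccl24 (-0.19 to 0.28), Ccl4 (-0.24 to 0.19), Ccl5 (-0.32 to 0.012), Ccl7 (-0.0033 to 0.11), Ccr7 (-0.19 to 0.10), Cxcl1 (-0.29 to 0.013), Cxcl11 (-0.29 to 0.04), Cxcl12 (-0.02 to 0.28) and Cxcr3 (-0.17 to 0.28). Signal over background limits the 26 members that were not above it on all arrays of a group.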

Other observations

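Probe sets annotated to several symbols lie outside the comparison above. The probe sets shared by the Ccl21 copies, which encode the lymphatic ligand of Ccr7, read 8.80, 8.98 and 9.38 in the control group, against 9.62, 9.21 and 9.66 in the cKO group. The groups overlapped and the log2 difference was 0.44 (SE 0.19, adjusted p = 0.19 in a limma fit over all probe sets with a symbol). Those shared by the Ccl27 copies read 6.84 to 7.15 over the arrays and differed by -0.01 to 0.01.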
